A study of Mus musculus with 6 samples.

Results

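The renin-angiotensin system of the kidney was followed through 9 genes, chosen by their GENCODE mouse symbols: Ren1, Agt, Ace, Agtr1a, Agtr1b, Enpep, Mme, Atp6ap2 and Agtrap. All 9 were found among the 56691 genes of the count files, and 8 of them had enough counts to be tested among 15662 genes. Total RNA of the whole kidney was sequenced from 3 control and 3 cisplatin-treated male C57BL/6 mice of an in-house colony, with 1 library per mouse. Control mice received saline, and the cisplatin group received 4 intraperitoneal injections of 8 mg/kg cisplatin from 9 weeks of age, a treatment given to bring about chronic kidney disease (CKD). Kidneys of both groups were taken at week 7. The labels name no introduced allele in either group.

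Renin, released by the juxtaglomerular cells of the afferent arteriole, cleaves angiotensinogen to angiotensin I, and angiotensin-converting enzyme (ACE) trims this to angiotensin II. Angiotensin II acts on type 1 receptors of vessels, glomeruli and tubules to raise blood pressure and retain sodium, and it restrains further renin release. Membrane peptidases of the tubular brush border and of other cells break the angiotensins down, so the kidney holds the enzymes of their formation and of their removal side by side.

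The 4 strongest changes concerned the precursor, both enzymes that form angiotensin II, and a protein bound to its receptor. Ace fell 6.12-fold and Ren1 2.05-fold in the cisplatin-treated kidney, Agtrap fell 1.80-fold, and Agt rose 2.06-fold. Agtr1a and Enpep fell by less, Mme and Atp6ap2 did not pass the test, and Agtr1b was near 0 in every library. In all, 5 of the 8 tested genes were called lower and 1 was called higher at an adjusted p under 0.05 (edgeR quasi-likelihood test, Benjamini-Hochberg adjustment over all tested genes). Over all tested genes 22.8% were called lower and 24.5% higher, and the counts of every gene list below should be read against these shares. In 6 of the 8 genes all cisplatin libraries lay on one side of all control libraries, against 57.8% of all tested genes. The median log2 fold change was -0.41 over the 8 genes and 0.05 over all tested genes.

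Counted read pairs numbered 21891855 to 26627554 per library, and the strand of the transcript held 96.7% to 97.2% of the stranded counts. Levels are given as CPM, counts relative to a library size that is multiplied by its TMM factor, a scaling that assumes most genes not to change between libraries. These factors ran from 0.844 to 0.894 in control and from 1.05 to 1.26 in cisplatin libraries, so the scaling bears on every fold change given here. Main calls over all tested genes were 3578 lower and 3841 higher, against 1375 and 8508 when libraries were scaled to their plain totals (library totals) and 2890 and 4774 with upper-quartile factors. Plain totals moved the median over all tested genes to 0.48 on the log2 scale, against which changes under that scaling should be read. Pairs outside annotated genes made up 4.63% to 4.86% of the control and 6.09% to 9.32% of the cisplatin libraries, and their part in the results was not tested. Because whole kidney was sequenced, fewer cells of a type and less RNA per cell cannot be told apart.

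**Figure D1:**
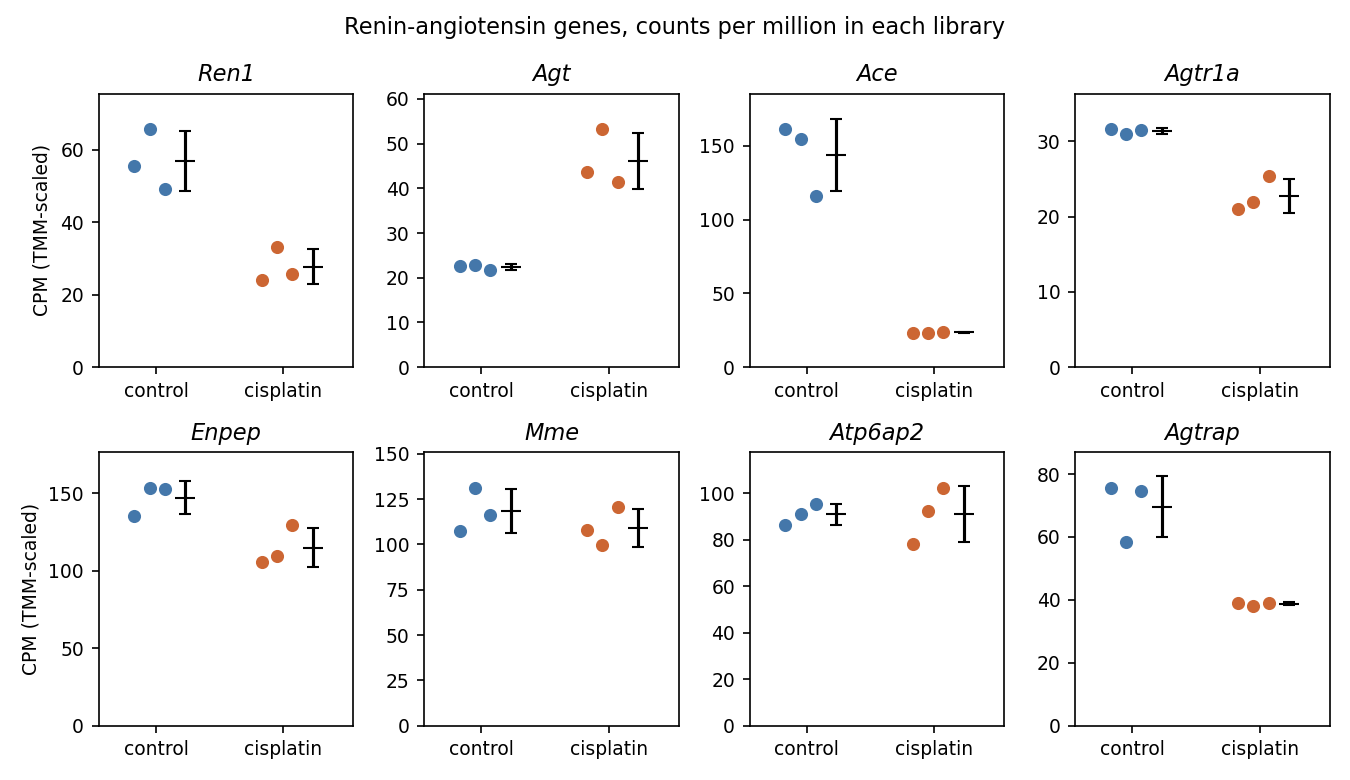
CPM of the 8 tested renin-angiotensin genes (vertical axes, from 0) in the 3 control (blue) and 3 cisplatin (orange) libraries, with horizontal bars at the mean and vertical bars of ± 1 SD. The groups do not overlap for Ren1, Agt, Ace, Agtr1a, Enpep and Agtrap, and they overlap for Mme and Atp6ap2.

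The angiotensins are read from Agt, which lies on the minus strand of chromosome 8 (GRCm39 chr8:125279301-125296716). The codons of angiotensin I are shown because angiotensin II and the other peptides made from angiotensin I lie in this stretch. They are codons 25 to 34 of the coding sequence, in exon 2 of 5 of the transcript used, at chr8:125291189-125291218. Capitals mark the codons of angiotensin II, and the lower-case letters the codons that ACE removes.
Agt: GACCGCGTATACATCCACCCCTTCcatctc

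Agt encodes angiotensinogen, the only substrate of renin, made in the liver and, in the kidney, in the proximal tubule. Its level was 22.6, 22.8 and 21.7 CPM in control libraries 1, 2 and 3 and 43.6, 53.2 and 41.4 CPM in cisplatin libraries 1, 2 and 3. The control libraries lay close together, all cisplatin libraries were higher, and cisplatin library 2 was the highest. The mean went from 22.4 ± 0.576 CPM (SD, n = 3) to 46.1 ± 6.27 CPM (SD, n = 3), a log2 fold change of 1.04 (SE 0.106, 95% interval 0.81 to 1.28, adjusted p = 2.12e-05). The raw counts behind it ran from 452 to 537 per control library and from 950 to 1588 per cisplatin library. Exons of Cog2 on the opposite strand share 2450 bases with those of Agt, and Cog2 held 501 to 627 counts. On the strand opposite to the transcript, at most 3 counts were assigned to any of the 9 genes in any library.

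Liver RNA was looked for beside Agt through 9 hepatocyte markers. Of the 6 tested, 3 were lower and 1 was higher, and their summed level ran from 926 to 969 CPM in the control group and from 429 to 440 CPM after cisplatin. Proximal tubule of the mouse also expresses several of these genes, and the sum was carried by Apob (683 to 393 CPM) and Ttr (255 to 22.3 CPM), both called lower. Fgb, a fibrinogen chain, was called higher at 0.515 and 2.75 CPM, and 2 markers were higher without cisplatin library 1. Among the more defining markers Alb held 25 to 89 counts per library and fell by 1.55 on the log2 scale (edgeR adjusted p = 9.05e-04), while Ahsg held at most 1 count.

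Ren1 encodes renin, the protease that starts the cascade, at GRCm39 chr1:133278248-133288063 on the plus strand. Ren1 measured 55.6, 65.6 and 49.1 CPM in the control libraries and 24.1, 33.1 and 25.7 CPM in the cisplatin libraries. The lowest control library was above the highest cisplatin library. The mean fell from 56.8 ± 8.31 to 27.6 ± 4.83 CPM (SD, n = 3 each), a log2 fold change of -1.04 (SE 0.138, 95% interval -1.34 to -0.73, adjusted p = 1.42e-04). Raw counts ran from 1021 to 1347 per control library and from 588 to 989 per cisplatin library. By size the fall of Ren1 stood at place 849 among all tested genes, whereas Agt stood at place 1465 among the rises.

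Renin cells belong to the mural cells of the vessel wall, so Ren1 was set beside 12 markers of juxtaglomerular, mesangial and vascular smooth muscle cells. Of the 11 tested markers 6 were called higher and 1 lower, and the list median was 0.48 on the log2 scale. The lower one was Cnn1, a smooth muscle protein (-0.95, adjusted p = 0.00135), and the higher ones included Rgs5 (0.71, adjusted p = 8.81e-05), Tagln (0.57) and Notch3 (1.08). Their summed level ran from 238 to 265 CPM in the control group and from 301 to 376 CPM after cisplatin. Within a library, the ratio of Ren1 counts to the summed counts of these markers was 0.210, 0.275 and 0.199 in control and 0.0641, 0.106 and 0.0852 in cisplatin libraries. The groups did not overlap, and the ratio was 2.70-fold lower after cisplatin (log2 difference -1.43, exact permutation test over samples, two-sided p = 0.1, adjusted p = 0.1 over 5 ratios). With 3 mice per group this is the smallest p the test can give. In the same libraries 7 of 8 fibroblast markers were called higher. The part of other cell types in the summed mural markers was not tested. Akr1b7, an aldo-keto reductase of renin cells, was named after its values were seen: it measured 2.06 to 3.31 CPM in control and 1.34 to 1.92 CPM in cisplatin libraries and did not pass the test (log2 fold change -0.61, adjusted p = 0.0511).

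Ace encodes the peptidyl-dipeptidase that makes angiotensin II and also breaks down bradykinin, and it sits on the endothelium and on the brush border of the late proximal tubule. The gene lies on the plus strand at GRCm39 chr11:105858469-105880790. Ace measured 161, 154 and 116 CPM in the control libraries and 23.4, 23.4 and 23.7 CPM in the cisplatin libraries. Control library 3 was the lowest of its group but still far above the cisplatin libraries, which were nearly identical. The mean fell from 144 ± 24.5 to 23.5 ± 0.154 CPM (SD, n = 3 each), to 16.3% of control, with a log2 fold change of -2.61 (SE 0.127, 95% interval -2.89 to -2.33, adjusted p = 1.39e-07). The coefficient of variation of Ace was 17.0% in control and 0.657% in cisplatin libraries. By size, this fall stood at place 146 among all tested genes. Gm11651, a long noncoding RNA on the opposite strand that shares 952 exon bases with Ace, held 0 to 2 counts.

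Markers of both places where Ace is known to be expressed were counted, beside 22.8% called lower and 24.5% higher over all tested genes. Of 8 markers of the late proximal tubule 7 were called lower, with a list median of -1.29 on the log2 scale and sums of 3276 to 3432 CPM per control and 960 to 1138 CPM per cisplatin library. All 10 markers of the early segments were called lower, with a median of -0.96 and sums of 9792 to 10908 and 4307 to 4771 CPM. Examples were Cyp7b1 (-4.18), Atp11a (-2.83) and Slc5a8 (-2.0) for the late segment and Slc22a6 (-2.14), Slc34a1 (-1.42) and Slc5a2 (-1.05) for the early ones. Of 10 endothelial markers 4 were lower and 0 higher (median -0.22, sums 423 to 437 and 310 to 391 CPM), among them Kdr (-0.73), Emcn (-0.47) and Tek (-0.47). Leaving out single libraries gave 3 to 7 lower endothelial markers, with 7 only without cisplatin library 1. Scaling to plain totals turned the endothelial split to 0 lower and 2 higher, beside 1375 lower and 8508 higher among all 15662 tested genes. With that scaling 7 early and 4 late proximal tubule markers were called lower and 0 higher. The part of these cell types in the fall of Ace was not tested.

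The promoters of the 3 genes that carry the formation of angiotensin II are shown in the stretch from 40 to 11 bases before the start that RefSeq gives. They were taken from a RefSeq promoter table (GRCm38.p6) and matched without a difference to GRCm39, at chr1:133278372-133278401 (plus strand), chr8:125296456-125296485 (minus strand) and chr11:105858734-105858763 (plus strand). Capitals mark TATAAA or, for Ace, its reverse complement TTTATA.
Ren1: tacatggtgtgTATAAAagaaggctcaggg
Agt: accccttgagTATAAAtaagcctgcttggc
Ace: tggctgggtTTTATAatccgcagggcggtc

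The first base of the motif stood 29 bases before the start in Ren1 and 30 bases in Agt, and Ace held it only on the other strand. Promoter windows of 300 bases were at hand for 8 of the 9 genes, 11 windows in all because Mme and Ace have several starts, and Agtr1a was the gene without one. On either strand, TATAAA was found in 5 of the 11 windows and in 13.6% of 32851 mouse promoters of the table. TGACGT, the core of the cAMP response element, was found in 1 window (Atp6ap2) against 7.51%, AGGTCA, a nuclear receptor core, in 1 window (the second start of Ace) against 16.3%, and GTTAAT, an HNF1 core, in 0 windows against 7.10%. The other windows with TATAAA were those of Agtr1b, on the plus strand 31 bases before the start, and of Enpep, on the minus strand only. Among the 5 genes with a match Agt was called higher, Ren1, Ace and Enpep lower, and Agtr1b was not tested.

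Angiotensin II acts through the type 1 receptor, which rodents encode in duplicate as Agtr1a on chromosome 13 (GRCm39 chr13:30518942-30566850, plus strand) and Agtr1b on chromosome 3 (chr3:20368609-20421348, minus strand). The coding sequences have 1080 bases each and differ at 99 of them (90.8% identity), and the proteins differ at 22 of 359 residues. A stretch near the 3′ end of the coding sequence, bases 964 to 1023, is shown because reads from it tell the receptors apart. Capitals mark the 13 bases that differ.
Agtr1a: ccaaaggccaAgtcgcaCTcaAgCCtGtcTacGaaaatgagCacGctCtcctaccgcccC
Agtr1b: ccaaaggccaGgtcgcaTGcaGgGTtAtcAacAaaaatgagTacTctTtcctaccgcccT

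Of 2083 windows of 100 bases along the Agtr1b transcript, 0 occur in Agtr1a, and the longest identical stretch of the coding sequences has 66 bases. Agtr1a, the main type 1 receptor of the rodent kidney, measured 31.6, 30.9 and 31.5 CPM in the control libraries and 21.0, 21.9 and 25.3 CPM in the cisplatin libraries. The control libraries were nearly equal, and the highest cisplatin library stayed below all of them. Agtr1a fell by 0.47 on the log2 scale (31.3 ± 0.368 to 22.7 ± 2.31 CPM, SD, n = 3 each, SE 0.0939, 95% interval -0.67 to -0.26, adjusted p = 0.00213). Scaling to plain totals lost the call (log2 fold change -0.04, adjusted p = 0.659).

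Agtr1b held 0, 0 and 2 counts in the control libraries and 0, 0 and 1 count in the cisplatin libraries. It made up 2 of 2044 counts of both receptor genes in control (0.0978%, exact Clopper-Pearson 95% interval 0.0119% to 0.353%) and 1 of 1844 in cisplatin libraries (0.0542%, 0.00137% to 0.302%). These intervals cover counting error only, and a difference of Agtr1b between the groups was not detectable at this depth.

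Agtrap encodes a membrane protein that binds the tail of the type 1 receptor and promotes its internalisation (GRCm39 chr4:148160185-148172538, minus strand). Agtrap measured 75.7, 58.3 and 74.7 CPM in the control libraries and 39.1, 38.2 and 39.0 CPM in the cisplatin libraries. Control library 2 was well below the other two, and the cisplatin libraries were again close together. The mean fell from 69.6 ± 9.74 to 38.7 ± 0.495 CPM (SD, n = 3 each), a log2 fold change of -0.85 (SE 0.106, 95% interval -1.08 to -0.61, adjusted p = 9.50e-05). The receptor and the protein bound to it were thus both called lower, but the difference between their fold changes was not tested.

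Enpep and Mme encode the brush border peptidases that act on the finished peptides: aminopeptidase A (Enpep) turns angiotensin II into angiotensin III, and neprilysin (Mme) makes angiotensin 1-7 and degrades natriuretic peptides. Enpep (GRCm39 chr3:129062824-129126369, minus strand) measured 135, 153 and 153 CPM in the control libraries and 106, 109 and 129 CPM in the cisplatin libraries. The highest cisplatin library was just below the lowest control library. Enpep fell by 0.36 on the log2 scale (147 ± 10.4 to 115 ± 12.8 CPM, SD, n = 3 each, SE 0.103, 95% interval -0.59 to -0.13, adjusted p = 0.0152). This call was lost without control library 2 (adjusted p = 0.0639), without control library 3 (0.0680), without cisplatin library 2 (0.0637) and with upper-quartile factors (0.0586), and with library totals the log2 fold change was 0.06 (adjusted p = 0.474).

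Mme (GRCm39 chr3:63148889-63293451, plus strand) measured 108, 131 and 116 CPM in the control libraries and 108, 99.4 and 120 CPM in the cisplatin libraries. The groups overlapped, and Mme did not pass the test (118 ± 12 and 109 ± 10.6 CPM, SD, n = 3 each, log2 fold change -0.11, SE 0.106, 95% interval -0.35 to 0.12, adjusted p = 0.392). With library totals it was called higher, at 0.31 (adjusted p = 0.0181), less than the median of all tested genes under that scaling.

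**Figure D2:**
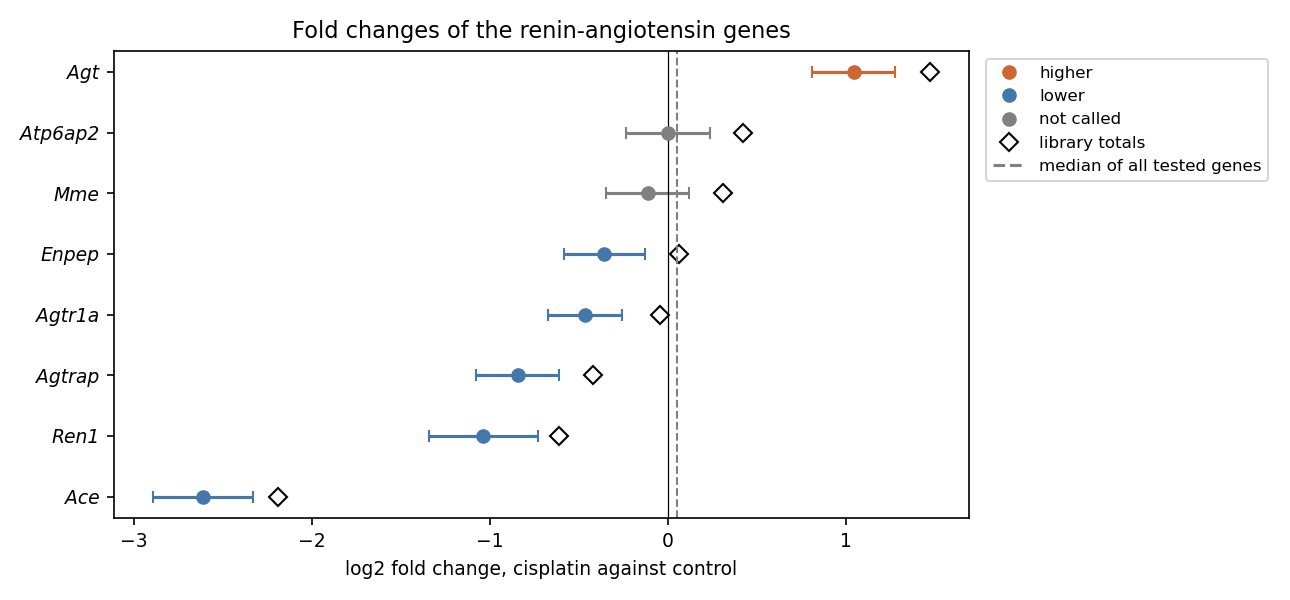
Log2 fold change of the 8 tested genes, cisplatin against control (horizontal axis), as edgeR estimates with 95% intervals (circles and bars, coloured by call) and with libraries scaled to their plain totals (open diamonds). Ace lies farthest from 0, and Agt alone was called higher with TMM factors. Every diamond lies to the right of its circle, so that Enpep and Mme cross 0 and Agtr1a comes close to it.

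Ratios of the members within a library do not depend on the scaling between libraries. The ratio of Ace to Enpep counts was 1.19, 1.01 and 0.759 in control and 0.222, 0.215 and 0.183 in cisplatin libraries, 4.71-fold lower (log2 difference -2.24). Ace to Mme went from 1.5, 1.18 and 0.999 to 0.217, 0.236 and 0.197, 5.59-fold lower (-2.48). Ace counts thus fell against those of both peptidases, with no overlap of the groups. These are ratios of RNA counts, not of enzyme activity. Counts of the peptidases themselves moved apart little. The ratio of Mme to Enpep was 0.796, 0.856 and 0.759 in control and 1.02, 0.910 and 0.931 in cisplatin libraries (log2 difference 0.25). The ratio of Agt to Ren1 counts, substrate to enzyme, rose from 0.406, 0.348 and 0.443 to 1.81, 1.61 and 1.62, a 4.21-fold difference (log2 difference 2.07). The groups did not overlap in any of the 5 ratios, and each had p = 0.1 in the two-sided exact permutation test (adjusted p = 0.1), the smallest it can give with 3 mice per group, so none can reach 0.05.

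**Figure D3:**
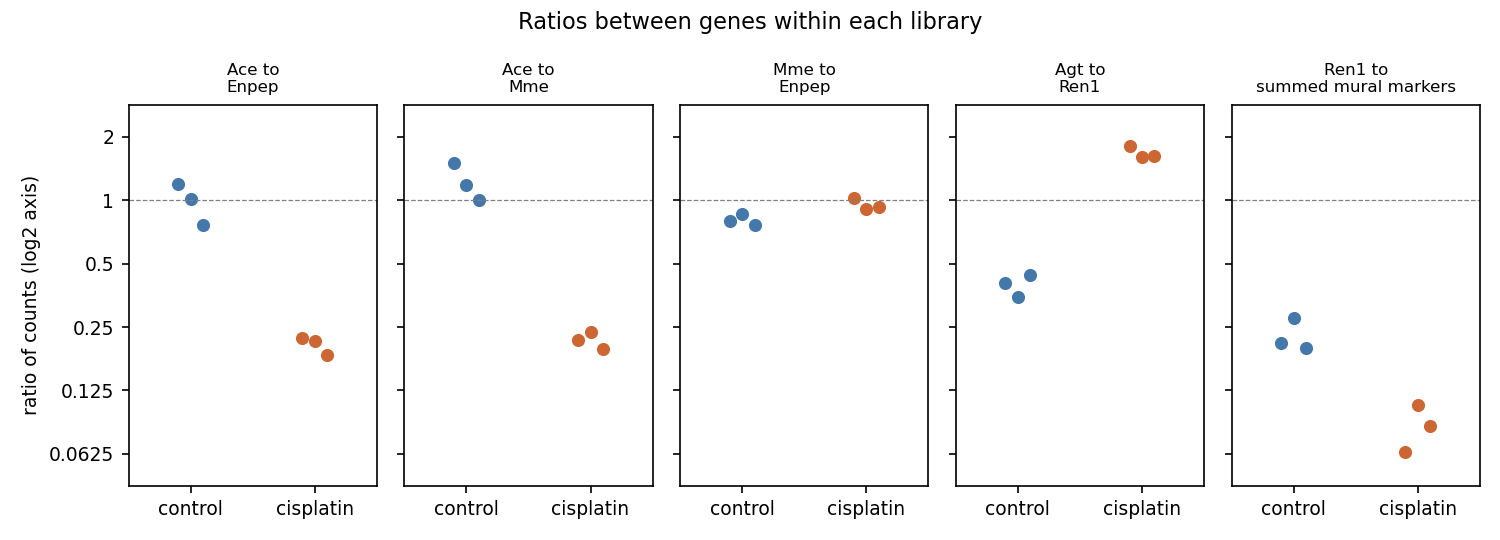
Ratio of the counts of a pair of genes, or of Ren1 to the summed counts of 12 mural cell markers, within each library (vertical axis, log2 scale, dashed line at 1), for the 3 control (blue) and 3 cisplatin (orange) libraries. Ace to Enpep and Ace to Mme drop from near 1 to near 0.2, Agt to Ren1 crosses from below 1 to above 1, and Mme to Enpep shifts least.

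Atp6ap2 encodes the prorenin receptor, which also serves as an accessory subunit of the vacuolar proton pump (GRCm39 chrX:12453960-12495037, plus strand). Atp6ap2 measured 86.4, 91.1 and 95.5 CPM in the control libraries and 78.4, 92.4 and 102 CPM in the cisplatin libraries. The cisplatin libraries enclosed the whole control range. The means were 91.0 ± 4.56 and 91.1 ± 12.1 CPM (SD, n = 3 each), and the log2 fold change was 0.00081 (SE 0.106, 95% interval -0.23 to 0.24, adjusted p = 0.996). With library totals Atp6ap2 was called higher, at 0.42 (adjusted p = 0.00184), below the median of all tested genes under that scaling. Of 21 other subunits of the vacuolar proton pump 12 were called lower and 2 higher (median log2 fold change -0.29), against 4 and 7 with library totals. Over all 15662 tested genes library totals gave 1375 lower and 8508 higher calls. The lower ones included Atp6v0a2 (-0.95, adjusted p = 5.01e-06), Atp6v1b2 (-0.77), Atp6v1a (-0.75) and Atp6v0e2 (-0.74), and the higher ones were Atp6v0d2 (0.54) and Atp6v1g3 (0.29), a subunit of intercalated cells. The count of lower subunits ran from 9 to 16 when single libraries were left out. Without control library 1, control library 2 or cisplatin library 2, 1 subunit was called higher.

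Levels of different genes were compared only per length, as CPM per kilobase of merged exons. In control kidney the order of the mean levels was Ren1 34.3, Ace 25.7, Atp6ap2 20.2, Enpep 18.9, Agtrap 10.2, Mme 9.98, Agtr1a 6.80, Agt 2.71 and Agtr1b 0.0133 CPM per kilobase. The ranges of Ace and Atp6ap2, of Atp6ap2 and Enpep, and of Agtrap and Mme overlapped, so those neighbours were not separated beyond the spread of the libraries. In cisplatin kidney the order was Atp6ap2 20.3, Ren1 16.7, Enpep 14.7, Mme 9.21, Agtrap 5.69, Agt 5.58, Agtr1a 4.93 and Ace 4.21 CPM per kilobase, again with Agtr1b last. Here the ranges of Atp6ap2 and Ren1, Ren1 and Enpep, Agtrap and Agt, and Agt and Agtr1a overlapped. Ace went from place 2 to place 8 of 9. With the length of the longest transcript Ace was at place 4 in control (27.6 CPM per kilobase, below Atp6ap2, Ren1 and Enpep). It was still at place 8 in cisplatin kidney (4.51), so its place in control depends on the length used. That length also put Enpep (27.4) above Ren1 (17.4) in cisplatin kidney, without overlap. The order and overlaps of other genes thus depend on the length too. The 8257 merged exon bases of Agt include the 2450 bases shared with Cog2. Ignoring strand left Agt at the same 537, 469 and 452 counts in control libraries 1, 2 and 3. How much of the shared bases its reads cover was not tested, so its level per length may be too low.

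The spread between mice differed among the genes and went in both directions. The coefficient of variation fell from control to cisplatin libraries for Ace and for Agtrap (14.0% to 1.28%). It was larger in cisplatin libraries for Agtr1a (1.18% to 10.2%), Agt (2.57% to 13.6%), Atp6ap2 (5.01% to 13.3%) and Enpep (7.05% to 11.1%), and it was similar for Ren1 (14.6% and 17.5%) and Mme (10.2% and 9.66%). These are descriptions over 3 libraries a group, and no difference in spread was tested.

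Genes with the most similar pattern over the 6 libraries were taken from 8512 genes by Pearson's r of log2 CPM, a description without a test, since the libraries of a group share their treatment and any gene that differs between the groups correlates with any other. For Ace they were Dhtkd1, Slco3a1 and Tmco3, and 14.1% of the genes had r over 0.95. For Ren1 they were Tmem185b, Creld1 and Cdc42se1 (5.06%), and for Agt Sowahb, Gas6 and Wwtr1 (6.52%). For Agtr1a they were Fbxo22, Adtrp and Fxyd2 (15.9%), for Agtrap Tra2a, Usp21 and Pnpla7 (5.83%), and for Enpep they included Trmt2b and Usp46 (4.49%). For the genes that did not pass the test they were Ift81, Wbp4 and Vnn1 (Mme, r of 0.964, 0.963 and 0.962) and Commd2, Psma7 and Rpl41 (Atp6ap2, r of 0.989, 0.989 and 0.988), where only 0.0705% and 0.211% of the genes had r over 0.95.

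The other genes of the pathway came from lists of peptidases, receptors and signalling proteins. Of 17 further peptidases and receptors 11 were tested, and 6 were called lower and 0 higher, with a list median of -0.31. With library totals the split was 1 lower and 5 higher, beside 1375 lower and 8508 higher among all 15662 tested genes. Anpep, aminopeptidase N, which shortens angiotensin III, fell from 91.7 ± 7.25 to 35.9 ± 2.15 CPM (log2 fold change -1.35, adjusted p = 1.43e-06). Klk1, tissue kallikrein, fell by 0.58 on the log2 scale, and Prcp, a carboxypeptidase of angiotensin II, by 0.44 (adjusted p = 7.60e-04 and 0.00337). Also called lower, and named after their values were seen, were Mas1, the receptor of angiotensin 1-7, at 15 to 85 counts per library (-1.42, adjusted p = 0.00842) and Ctsa, cathepsin A (-0.31, adjusted p = 0.0181). Of enzymes forming angiotensin II outside the ACE route, the chymases Cma1 and Mcpt4 and cathepsin G (Ctsg) held 0 to 1 count per library. Cpa3 was at 0 in every library, and the type 2 receptor Agtr2 held 0 to 4 counts.

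Of 26 genes that control renin synthesis and release 24 were tested, of which 3 were called lower and 8 higher (list median 0.13). Among all tested genes 22.8% were called lower and 24.5% higher, with a median of 0.05. The higher ones included the adenosine A1 receptor Adora1 (3.52 to 10.3 CPM, log2 fold change 1.56, adjusted p = 7.67e-06), the guanylate cyclase subunit Gucy1a1 (1.19), the prostaglandin receptor Ptger4 (1.46) and the phosphodiesterase Pde3b (1.0). The lower ones were Vdr, the vitamin D receptor (132 to 79.2 CPM, -0.74, adjusted p = 1.05e-04), Npr1, the receptor of atrial natriuretic peptide (-0.39, adjusted p = 0.0317), and Gja5, the connexin that couples renin cells (-0.45, adjusted p = 0.0370). Lower genes numbered 6 without cisplatin library 1, 5 without cisplatin library 3 and 1 without cisplatin library 2 or control library 2. Library totals gave 1 lower and 12 higher, where all 15662 tested genes had 1375 lower and 8508 higher. Several of these genes are expressed in many cell types, so their values do not refer to renin cells alone.

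Of 20 signalling genes downstream of the type 1 receptor 4 were called lower and 5 higher (median 0.11), shares near the 22.8% and 24.5% of all tested genes, against 1 and 15 with library totals. Gna12 (-0.55), the NADPH oxidase subunit Cyba (-0.66), the calcium release channel Itpr1 (-0.54) and the phospholipase Plcb1 (-0.28, adjusted p = 0.0459, with overlapping groups) were lower. Cybb (1.23), the partner of Cyba in phagocytes, was higher, as were Rgs5 (0.71), Plcb4 (0.73) and Arrb2 (0.91). Macrophage markers moved with Cybb: 9 of 10 were called higher, among them C1qa, C1qb and C1qc (1.64, 1.66 and 1.77), and their sum ran from 81.7 to 98.1 CPM in the control group and from 197 to 241 CPM after cisplatin. Their part in the result was not tested.

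The mineralocorticoid receptor, through which aldosterone completes the system in the distal nephron, and its targets were mostly higher. Of 14 genes 11 were called higher and 0 lower, with a median of 0.72, against 13 and 0 with library totals and 9 to 12 higher when single libraries were left out. Without cisplatin library 3, 1 gene was called lower. Edn1, endothelin, rose from 0.748 to 5.13 CPM (log2 fold change 2.76, adjusted p = 2.06e-06), Per1 by 1.96, Tsc22d3 by 1.0 and Scnn1b, a subunit of the epithelial sodium channel, by 0.89. Several of these genes also respond to glucocorticoids or to other signals. Collecting duct markers, beside them, had 3 of 7 called higher and 0 lower (Aqp2 1.12, Aqp3 0.41, Atp6v1g3 0.29). This count was 1 without control library 1 or control library 2 and 6 with library totals, which called 8508 of all 15662 tested genes higher. Markers of the thick limb and distal tubule had 1 of 6 higher and 4 lower (Slc12a1 0.46, against Umod -0.50, Slc12a3 -0.71 and Pvalb -5.22 among the lower), against 1 higher and 1 lower with library totals. Markers of the adrenal cortex were at or near 0, with Cyp11b2 and Nr5a1 at 0 in every library and a summed level of the list of at most 0.960 CPM.

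The kallikrein-kinin system shares ACE and Mme with the angiotensins. Of its 11 genes 9 were tested, with 5 called higher and 1 lower and a median of 0.47, against 6 and 0 with library totals. The precursors Kng1 (0.446 to 1.94 CPM, log2 fold change 2.10) and Kng2 (167 to 245 CPM, 0.56), the receptor Bdkrb2 (2.02) and the carboxypeptidase subunit Cpn1 (1.32) were higher, and Klk1 was the gene called lower (2 genes were lower without cisplatin library 3). Bdkrb1 was listed at 0 in every library.

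In the list of 11 other peptidases of the brush border, 7 of the 10 tested were lower and 1 was higher (list median -1.05), against 6 and 2 with library totals. Mep1b, a meprin subunit (-2.65), Ggt1, a gamma-glutamyl transferase (-2.03), and Cndp2 (-2.81) were lower, and Folh1 was higher (0.58, adjusted p = 0.00620). Cndp2 stood in this list although it encodes a cytosolic dipeptidase and no brush border enzyme. Enpep and Mme, with -0.36 and -0.11, lay above the median of this list, and Ace lay below it.

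**Figure D4:**
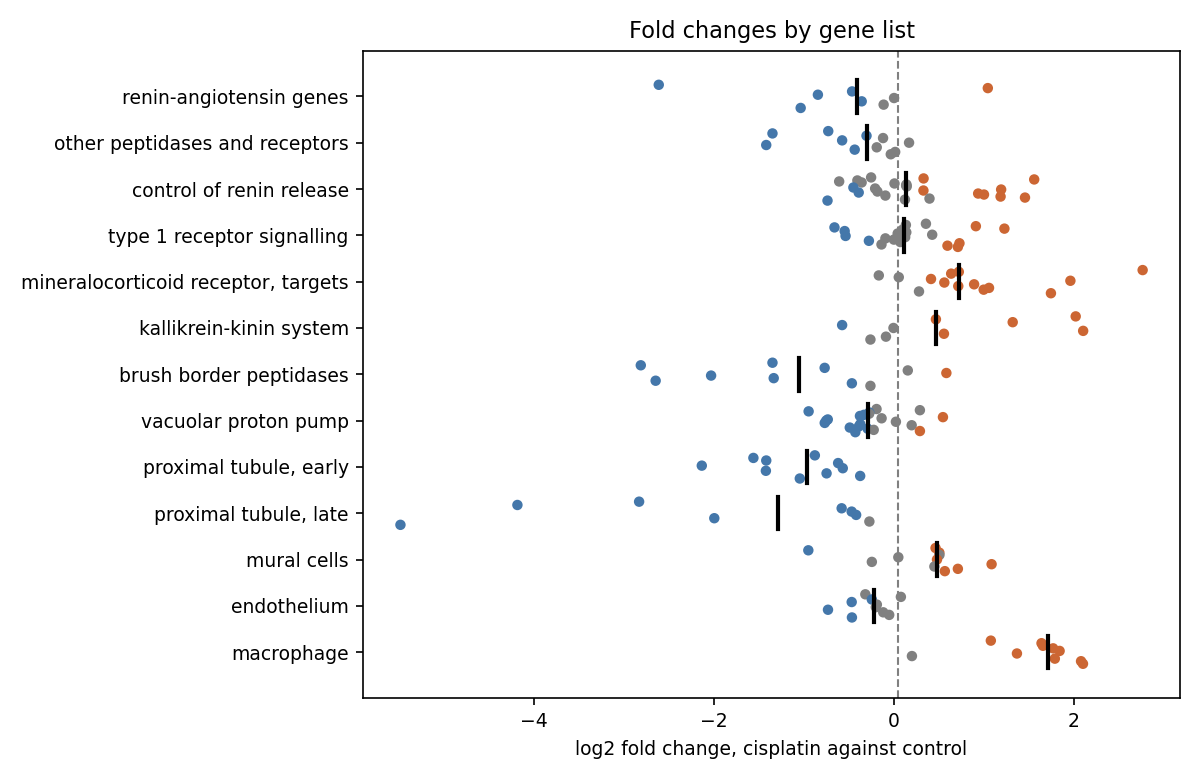
Log2 fold change of every tested gene, cisplatin against control (horizontal axis), in the renin-angiotensin genes, 7 related lists and 5 lists of cell type markers (vertical axis), with blue points called lower, orange points called higher, grey points not called, black bars at the list median and a dashed line at the median of all tested genes. Medians run from -1.29 for the late proximal tubule to 1.71 for macrophages, with -0.41 for the renin-angiotensin genes and 0.72 for the mineralocorticoid receptor and its targets.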

How the data were processed

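Read pairs of stranded total RNA libraries were trimmed by the authors with Cutadapt and aligned with STAR to mm39 (GRCm39), and raw counts per gene were deposited without normalization. For STAR's settings and the gene annotation, details were not given in the sources used here. Counts of the transcript strand were used, and GENCODE vM39 gave symbols, coordinates and exon lengths.

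Genes passing filterByExpr (minimum count 10, minimum total 15) were tested with edgeR 4.0.16 (TMM factors, quasi-likelihood test, Benjamini-Hochberg adjustment over 15662 genes, threshold 0.05), and the fit was checked on simulated data. Ratios within a library used a pseudocount of 0.5, and a planned ratio of Agtr1a to Agtr1b was not formed because Agtr1b held 0 to 2 counts.

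The genes and lists were chosen with earlier results of these data known. Named were all 9 genes, up to 4 called genes per direction and pathway list and up to 3 per marker list with the smallest adjusted p, and the 3 genes of most similar pattern (Pearson's r, mean log2 CPM of 3 or more). A few genes that this rule selects are not reported here. Podocyte, fibroblast, mast cell and neutrophil markers were measured as well.

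Alternatives were scaling by library totals, DESeq2 size factors or upper-quartile factors, testing without a low-count filter or with 10 counts in every library, DESeq2 1.42.0, limma-voom (limma 3.58.1), counts ignoring strand, mitochondrial genes and the 20 highest genes left out, a replicate block, each library left out, 2 stricter thresholds, the length of the longest transcript and, added after seeing the data, that of the canonical transcript. R 4.3.3 and Python 3.11.15 were used.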

Additional observations from a re-analysis of the deposited data

How the results depend on the processing

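Ren1, Agt, Ace and Agtrap kept their direction and call in all 16 alternative fits, with log2 fold changes of -1.19 to -0.61, 0.93 to 1.47, -2.75 to -2.19 and -0.96 to -0.42. With library totals, 3 of the 8 genes were called lower and 3 higher, beside 1375 lower and 8508 higher among all tested genes. The related pathway lists together had 12 lower and 60 higher calls with library totals, against 31 and 32 with TMM factors. In the test against a fold change of 1.5, 3 genes were called lower and 1 higher. Over all 15662 tested genes that test called 1114 lower and 1396 higher, and the lists had 6 lower and 16 higher calls. Leaving out single libraries gave 4 to 5 genes called lower and 1 to 1 higher, and 24 to 40 and 28 to 33 calls in the lists. Over all tested genes these fits called 2902 to 4180 lower and 3000 to 4045 higher. At an adjusted p under 0.01 the call of Enpep was lost. With library totals Enpep (0.062) and Mme (0.31) changed sign. Atp6ap2, whose value was near 0, changed sign with DESeq2 size factors (-0.028), no low-count filter (-0.0099), DESeq2 (-0.041), limma-voom (-0.0054), counts ignoring strand (-0.00098) and the replicate block (-0.0062), and ran from -0.12 to 0.10 when single libraries were left out. The cause of these changes was not tested. The 5 ratios kept their direction without each library in turn and with counts ignoring strand. Same-numbered libraries deviated together only weakly (correlations of 0.133, 0.142 and 0.0997), so the numbers were not taken as pairs. With the replicate number as a block, 5 genes were called lower and 1 higher, as without it. Over all tested genes the block gave 3796 lower and 4087 higher calls, against 3578 and 3841 without it. With another gene length or with library totals, levels in control ran from 2.34 to 3.78 CPM per kilobase for Agt and from 5.87 to 13.7 for Agtr1a. They ran from 16.3 to 35.2 for Enpep, from 8.6 to 14.3 for Mme and from 17.4 to 38.3 for Atp6ap2. These moves were beyond the spread between mice. Agtrap ran from 8.82 with library totals, within that spread, to 17.4 with the canonical transcript, beyond it. Ren1 and Ace moved by less than the spread. At 0 to 2 counts per library, depth limits Agtr1b most. Whole-kidney RNA does not show in which cells a level changed.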

Other observations

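Markers of further cell types that hold parts of the system were also counted, beside 22.8% called lower and 24.5% higher over all tested genes. Of 10 podocyte markers 5 were called higher and 0 lower (among them Wt1 1.23 and Cdkn1c 0.84 on the log2 scale), with summed levels of 205 to 217 CPM in control and 226 to 320 CPM in cisplatin libraries. Of 8 fibroblast markers 7 were higher and 0 lower, among them Dcn (1.58), Col3a1 (1.19) and Pdgfra (0.92). Of 8 mast cell markers 2 were tested, and 1 was called higher (Kit, 0.93), a gene that other kidney cells express as well, while Cpa3 was at 0 in every library. Of 6 neutrophil markers 2 were tested and both were higher (S100a8 0.89 and S100a9 0.97), against 1 marker called higher without control library 1, control library 2, cisplatin library 2 or cisplatin library 3, with summed levels of at most 3.80 CPM, and Ly6g, Elane and Mpo were at 0.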
